A study of Mus musculus with 12 samples.

Results

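The wall of a brain vessel holds cells other than the endothelium. Pericytes sit on capillaries, smooth muscle cells wrap arteries and arterioles, and perivascular fibroblasts lie around the larger vessels. The genes described here are 10 markers of those cells, taken by name: the pericyte genes Pdgfrb, Rgs5 and Vtn, the smooth muscle genes Acta2 and Tagln, the fibrillar collagen genes Col1a1, Col1a2 and Col3a1, and the proteoglycan genes Dcn and Lum. All 10 were found among the 54193 genes with a transcript in the files, and all 10 were among the 18017 genes kept for testing, whose normalized counts averaged 10 or more over the 12 libraries. A normalized count is the reads of a gene divided by a factor for the depth of the library.

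The libraries came from laser-microdissected substantia nigra pars compacta (SNpc), the midbrain nucleus that holds the dopaminergic neurons lost in Parkinson disease, of mice 1 week old that were labelled male. There were 4 groups of 3 mice: OF1-En1+/- and OF1 WT mice of the outbred OF1 stock, and C57-En1+/- and C57 WT mice of the C57 strain. The En1+/- mice carry 1 working copy of Engrailed-1, a homeobox gene that dopaminergic neurons need, the other copy being disrupted in all cells by an inserted LacZ gene. The C57-En1+/- mice were derived from OF1-En1+/- mice by repeated crossing to C57, and the WT mice carry no engineered allele. Each library is 1 mouse, so that the spread between libraries includes the spread between animals and between dissections.

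Pericytes are recruited to capillaries by platelet-derived growth factor B from the endothelium, which acts on the receptor encoded by Pdgfrb. They share their basement membrane with the endothelial cells and help to form the blood-brain barrier, which matures in mice around birth. Fibroblasts of the brain lie in the meninges and around larger vessels and make the fibrillar collagens and the small proteoglycans that bind them. In RNA from pieces of tissue, fewer cells of a type and less RNA per cell cannot be told apart.

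The matched reads ranged between 13444844 and 37524317 in 9 libraries, and between 61062736 and 167686254 in the C57 WT libraries. Depth thus differed between the C57 groups and also between OF1 WT and C57 WT mice. Its part in these comparisons and in the interaction of genotype and strain was not tested. En1 did not serve as a check of the genotype labels, because its normalized count was 0 to 15.4 in 10 libraries, 701 in mouse SW22 (OF1-En1+/-) and 1038 in mouse C572S (C57 WT). Those libraries were also the ones with abundant Th (87319 and 118022 normalized counts, against 8.85 to 1387 in the other 10) and Slc6a3 (208632 and 339712, against 4.30 to 3097), genes of dopaminergic neurons. All 12 libraries are described as SNpc, yet the other 10 had far lower counts of these genes. Whether the content of the dissected tissue differed between libraries was not tested. In C57-En1+/- mouse C572, which was labelled male, the X-inactivation transcript Xist had 1368 normalized counts, against 0 to 35.4 in the other 11 libraries, and Ddx3y and Eif2s3y, genes of the Y chromosome, were at 0. That library goes against its label for sex, and estimates that rest on it are given with and without it. SW22 and C572S were likewise left out together.

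The sequence just upstream of the transcript start is shown for Rgs5 and Tagln, the members with the smallest unadjusted p in the genotype comparisons and in the interaction of genotype and strain. Both are 250 bases long, on GRCm39, 5′ to 3′ on the gene's strand. Rgs5 lies at chr1:169482786-169483035 on the plus strand and the capitals mark a CCAAT box read on the opposite strand, at 33 to 29 bases before the start. Tagln lies at chr9:45847405-45847654 on the minus strand and the capitals mark a CArG box, the sequence that serum response factor binds, at 64 to 55 bases before the start.
Rgs5: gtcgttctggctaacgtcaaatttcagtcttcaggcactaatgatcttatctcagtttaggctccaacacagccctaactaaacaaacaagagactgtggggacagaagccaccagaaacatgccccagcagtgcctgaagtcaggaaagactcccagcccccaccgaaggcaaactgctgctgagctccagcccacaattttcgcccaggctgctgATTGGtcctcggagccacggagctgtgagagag
Tagln: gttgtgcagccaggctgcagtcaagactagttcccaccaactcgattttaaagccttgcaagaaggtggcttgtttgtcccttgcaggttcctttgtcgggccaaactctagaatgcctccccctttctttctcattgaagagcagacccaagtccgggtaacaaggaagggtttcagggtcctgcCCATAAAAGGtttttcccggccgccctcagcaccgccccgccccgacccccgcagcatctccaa
The window of Pdgfrb was not searched. Among the 9 members whose windows were searched, on both strands, the CArG box was present in 1 (Tagln) and the CCAAT box, written CCAAT, in 2 (Rgs5 and Col1a1). Of 32851 RefSeq promoter windows of the same length (GRCm38.p6), 1.47% held a CArG box and 33.8% a CCAAT box. A match describes the letters only. A box outside the 250 bases before the 1 start used per gene would be missed, so no match does not mean that a gene lacks the box.

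On the TPM scale (transcripts relative to the whole library), which corrects for transcript length, the pericyte genes Vtn and Rgs5 were the most abundant members. Vtn averaged 37.2 ± 15.2 TPM and Rgs5 18.3 ± 8.03 TPM (SD, n = 12), and Vtn was above Rgs5 in 12 of 12 libraries. Dcn followed at 5.24 ± 7.13 TPM and Pdgfrb at 4.77 ± 2.09 TPM, but Dcn was the higher of these in only 3 of 12 libraries. Its mean rested on C57-En1+/- mouse C572 (24.0 TPM) and C57 WT mouse C5710 (15.5 TPM), and was 2.34 TPM without both. Further down came Col3a1 (4.03 ± 3.72 TPM), Col1a2 (2.55 ± 1.44 TPM), Acta2 (2.27 ± 1.86 TPM), Tagln (2.06 ± 1.24 TPM), Lum (1.34 ± 0.951 TPM) and Col1a1 (0.617 ± 0.540 TPM). Neighbours in this lower part of the order changed places between libraries, each being above the next in 6 to 9 of 12. The pericyte genes gave 48.5% of the summed normalized counts of the members in C57 WT mouse C5710, 94.3% in C57 WT mouse C572S and values between these in the other 10 libraries.

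**Figure D1:**
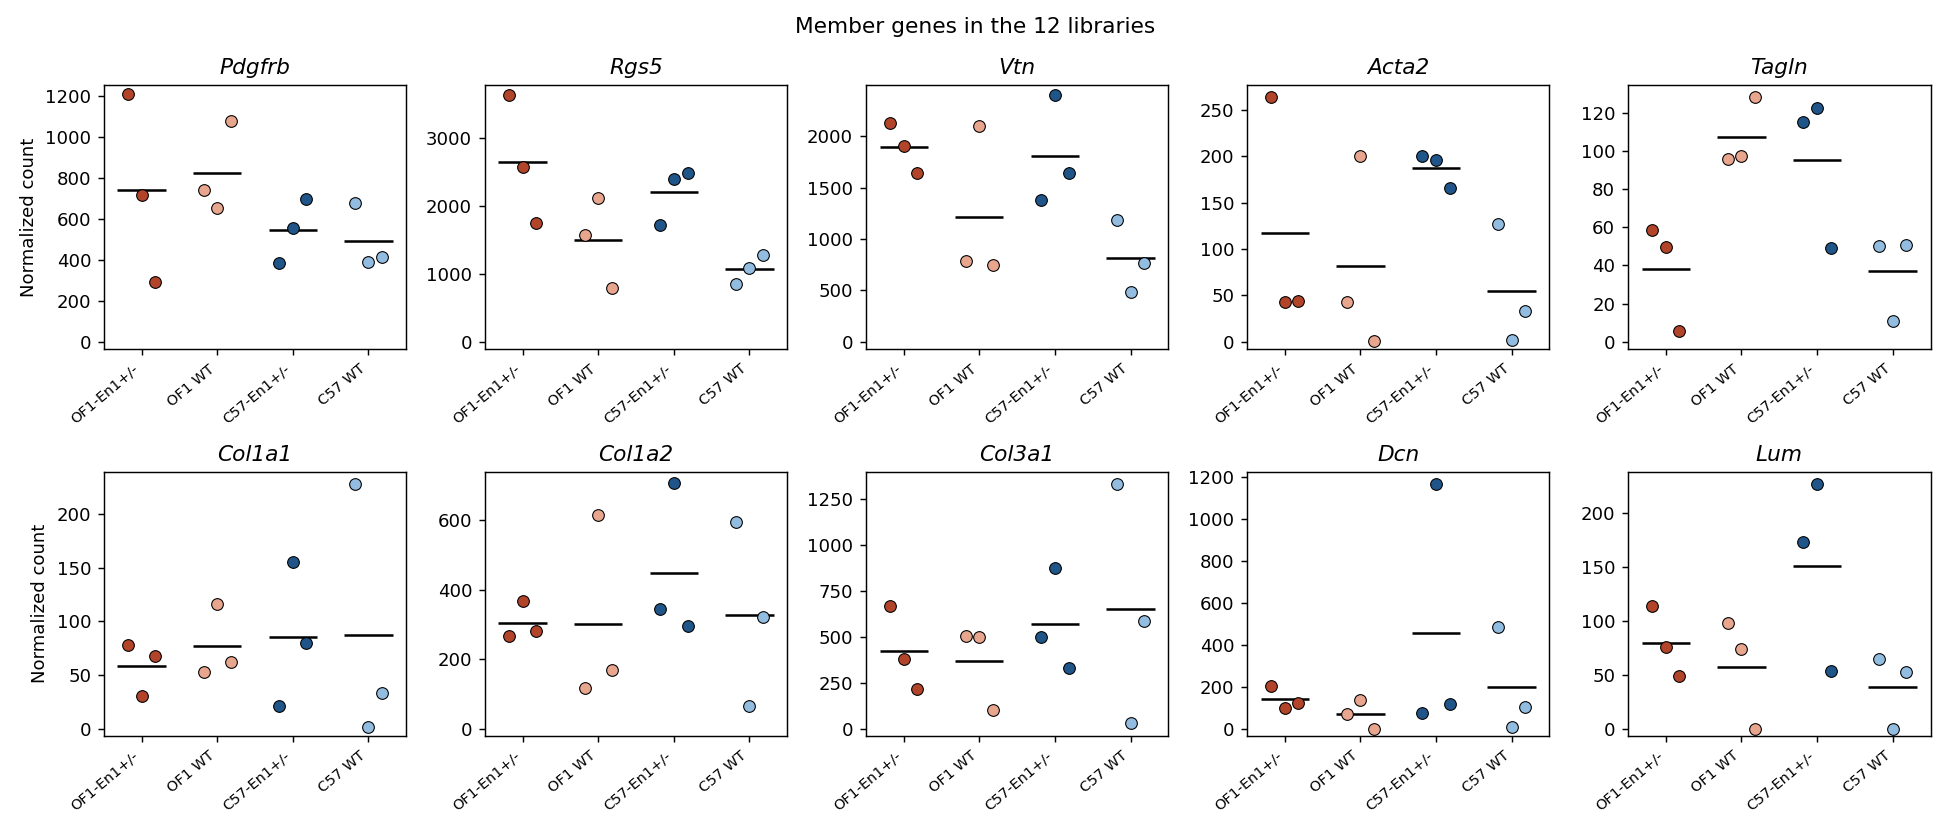
Normalized counts (vertical axis, linear, a separate scale for each gene) of the 10 members in the 4 groups. Each point is 1 library of 1 mouse and each bar is the mean of 3. Rgs5, Vtn and Acta2 have no overlap between C57-En1+/- and C57 WT, and Tagln has none between OF1-En1+/- and OF1 WT.

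Rgs5 encodes a regulator of G protein signalling that is a widely used marker of pericytes (ENSMUSG00000026678, chromosome 1, 169483036 to 169524887 on GRCm39). Its normalized counts were 3638 (SW21), 2577 (SW22) and 1741 (SWB) in OF1-En1+/- mice, against 1571 (SW31), 2120.1 (SW7) and 788 (SWG) in OF1 WT mice. The highest OF1 WT library lay above the lowest OF1-En1+/- library, so the groups overlapped. In C57-En1+/- mice it had 1714 (C5713), 2399.97 (C572) and 2479.95 (C575) normalized counts, against 851 (C5710), 1092 (C572S) and 1274 (C5743) in C57 WT mice. Values of the other members follow the same order of mice. Every C57-En1+/- library lay above every C57 WT library.

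The estimated log2 fold change of Rgs5 was 0.83 (SE 0.35, 95% interval 0.06 to 1.6) for OF1-En1+/- over OF1 WT and 1.04 (SE 0.35, 95% interval 0.26 to 1.81) for C57-En1+/- over C57 WT. Neither passed the threshold of 0.05 in edgeR's quasi-likelihood test, with adjusted p = 0.523 in OF1 and 0.522 in C57, and unadjusted p = 0.0374 and 0.0129. Without mouse C572 the C57 estimate was 0.95, and without SW22 and C572S the estimates were 0.84 in OF1 and 1.02 in C57. Limma voom with quality weights gave the OF1 estimate as 1.35, with adjusted p = 0.0866, and DESeq2 gave 0.84 with adjusted p = 0.319.

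Vtn encodes vitronectin, a plasma and matrix protein that brain pericytes express strongly (ENSMUSG00000017344, chromosome 11, 78388717 to 78393156). It had 2127, 1908 and 1645 normalized counts in OF1-En1+/- mice, against 781, 2099 and 751 in OF1 WT mice. OF1 WT mouse SW7 was within the range of the OF1-En1+/- mice and the other OF1 WT mice were below it. In C57-En1+/- mice the normalized counts were 1380.0, 2402 and 1639, against 1186, 486 and 770.0 in C57 WT mice. These groups did not overlap, but the lowest C57-En1+/- library and the highest C57 WT library were close.

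Vtn had a log2 fold change of 0.64 (SE 0.42) for OF1-En1+/- over OF1 WT and 1.15 (SE 0.42, 95% interval 0.23 to 2.07) for C57-En1+/- over C57 WT. The edgeR adjusted p was 0.666 in OF1 and 0.530 in C57, where the unadjusted p was 0.0182. Without mouse C572 the C57 estimate was 0.88, and without SW22 and C572S it was 0.85. Voom gave 1.21 in OF1, with adjusted p = 0.0916.

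Pdgfrb, the platelet-derived growth factor receptor beta that pericytes need for recruitment, did not share this pattern (ENSMUSG00000024620, chromosome 18, 61178212 to 61218133). It had 1207, 718 and 292 normalized counts in OF1-En1+/- mice, against 743, 654 and 1076 in OF1 WT mice. It had 384, 555 and 695 in C57-En1+/- mice, against 675, 390.1 and 414 in C57 WT mice. The groups overlapped in both strains. Its estimate on the log2 scale was -0.16 (SE 0.44, edgeR adjusted p = 0.947) in OF1 and 0.15 (SE 0.44, edgeR adjusted p = 0.951) in C57.

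Since all 3 were taken as pericyte genes, Rgs5 and Vtn were also set against Pdgfrb within each library, a ratio that does not depend on depth. The ratio also carries the spread of Pdgfrb, which correlated with Rgs5 and with Vtn at only r = 0.175 each over the 12 libraries. It is therefore not a measure per pericyte. Rgs5 over Pdgfrb was 3.01, 3.59 and 5.96 in OF1-En1+/- mice, against 2.12, 3.24 and 0.733 in OF1 WT mice. It was 4.46, 4.33 and 3.57 in C57-En1+/- mice, against 1.26, 2.80 and 3.08 in C57 WT mice. The C57 groups did not overlap in this ratio and the OF1 groups did. The mean log2 ratio was higher by 1.23 in OF1-En1+/- (exact two-sided permutation p = 0.2) and by 0.89 in C57-En1+/- (exact p = 0.1, the smallest that 3 against 3 mice allow).

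Vtn over Pdgfrb was 1.76, 2.66 and 5.63 in OF1-En1+/- mice, against 1.05, 3.21 and 0.698 in OF1 WT mice, a mean log2 difference of 1.16 (exact permutation p = 0.3). It was 3.59, 4.33 and 2.36 in C57-En1+/- mice, against 1.76, 1.25 and 1.86 in C57 WT mice, a mean log2 difference of 1.06 (exact permutation p = 0.1). This design cannot reach 0.05 in such a test.

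**Figure D2:**
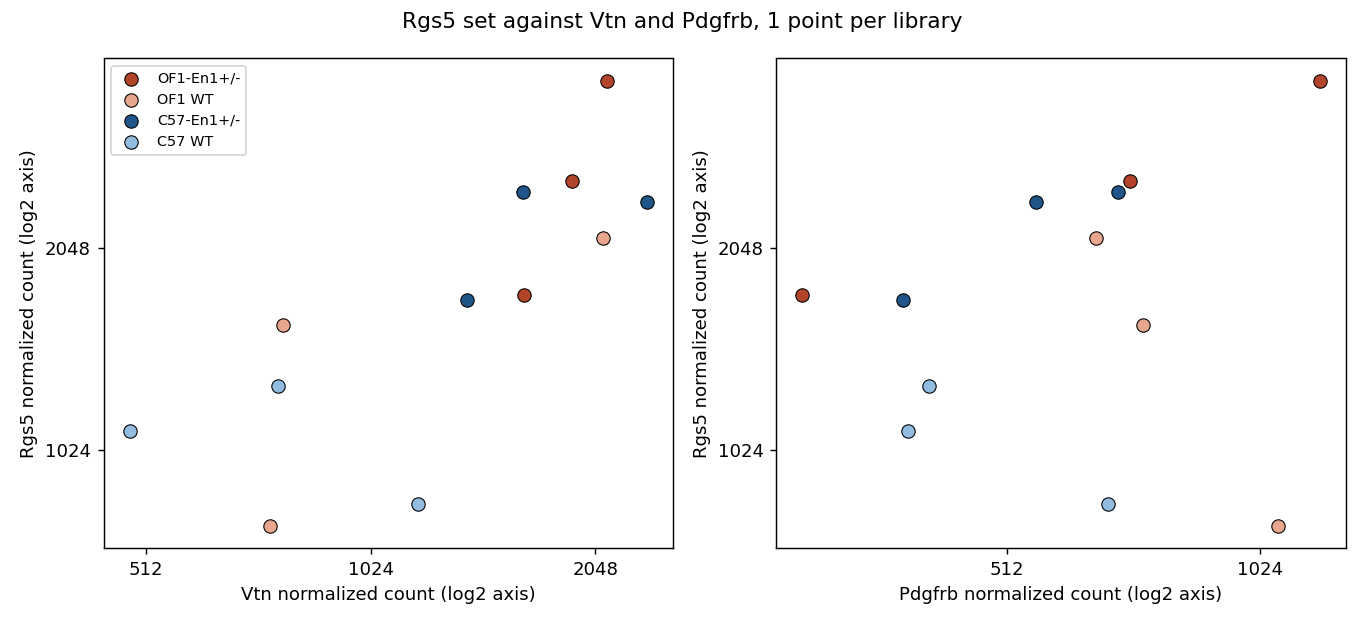
Rgs5 normalized counts (vertical, log2 axis) against those of Vtn (left) and Pdgfrb (right, log2 axes), 1 point per library, coloured by group. Rgs5 and Vtn ran together over the 12 libraries (r = 0.774), while Rgs5 and Pdgfrb did not show such a relation (r = 0.175). Vtn had a like r with the smooth muscle gene Acta2 (0.798), which is not shown.

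Over the 12 libraries, Rgs5 and Vtn correlated on the log2 scale with Pearson's r = 0.774 (permutation p = 0.0036, adjusted over 45 member pairs 0.018) and Spearman's rho = 0.846 (permutation p = 0.00097, adjusted 0.0436). Without SW21 and SWG, the libraries farthest from the median of Rgs5, r was 0.732. It was 0.836 in the 6 OF1 libraries and 0.709 in the 6 C57 libraries, and in each strain the points include the difference between the genotypes. Pdgfrb and Rgs5 had r = 0.175 (permutation p = 0.585) and rho = 0.196 (permutation p = 0.543). The relation was not particular to the pericyte genes. Vtn had r = 0.798 with Acta2, 0.777 with Col1a2 and 0.721 with Lum, and Rgs5 had 0.672 with Acta2. Without SWG and C572S, the libraries farthest from the median of Vtn, its values were 0.615, 0.552 and 0.334. Without SW21 and SWG that of Rgs5 was 0.438. With Tagln, r was 0.211 for Vtn and 0.083 for Rgs5.

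Acta2 encodes smooth muscle alpha-actin, the contractile actin of arterial smooth muscle (ENSMUSG00000035783, chromosome 19, 34217737 to 34232990). Its normalized counts were 264, 42.5 and 44.1 in OF1-En1+/- mice, against 43.0, 200.5 and 1.10 in OF1 WT mice. In C57-En1+/- mice they were 200.4, 196 and 166, against 127, 2.14 and 33.3 in C57 WT mice. The C57 groups did not overlap and the C57-En1+/- libraries were close to each other, with a mean of 187 ± 18.6, against 54.2 ± 65.1 in C57 WT mice (SD, n = 3 each).

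OF1 WT mouse SWG and C57 WT mouse C572S had 1 and 4 Acta2 reads, so the C57 WT spread was wide. The log2 fold change was 0.51 (SE 1.37) for OF1-En1+/- over OF1 WT and 1.79 (SE 1.39) for C57-En1+/- over C57 WT, with edgeR adjusted p = 0.944 and 0.737. Without C572S and SW22 the C57 estimate was 1.18, and without C572 it was 1.74. Voom gave 3.74 in OF1 (unadjusted p = 0.0461, adjusted p = 0.280) and 2.47 in C57 (unadjusted p = 0.0439, adjusted p = 0.590). Acta2 shares coding sequence with the other actin genes, so that reads can be split between them, and the gene overlaps Stambpl1 on the opposite strand over 301 bases.

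Tagln encodes transgelin, an actin-binding protein of smooth muscle (ENSMUSG00000032085, chromosome 9, 45840909 to 45847404). It had 58.4, 49.6 and 5.66 normalized counts in OF1-En1+/- mice, against 95.5, 97.3 and 128 in OF1 WT mice. It had 115, 123 and 48.9 in C57-En1+/- mice, against 50.2, 10.7 and 50.7 in C57 WT mice. All OF1-En1+/- libraries were below all OF1 WT libraries, whereas in C57 mouse C575 fell within the C57 WT range. OF1-En1+/- mouse SWB had 5 reads.

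The log2 fold change of Tagln was -1.51 (SE 0.83, 95% interval -3.32 to 0.30) for OF1-En1+/- over OF1 WT, with unadjusted p = 0.0936 and edgeR adjusted p = 0.603. It was 1.35 (SE 0.81) for C57-En1+/- over C57 WT, with edgeR adjusted p = 0.661. The difference between these effects, C57 minus OF1, was 2.86 on the log2 scale (SE 1.16, unadjusted p = 0.0298) and did not pass after adjustment (edgeR adjusted p = 0.667). Without mouse C572 this difference was 2.63, and without SW22 and C572S it was 2.65. Tagln overlaps the lncRNA Gm48529 on the opposite strand over 5995 bases and Pcsk7 over 123 bases. The libraries do not keep strand, and Gm48529 had 0 to 42 reads.

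The smooth muscle genes did not run together in OF1. Acta2 and Tagln had r = 0.292 over the 12 libraries (permutation p = 0.370) and rho = 0.210 (permutation p = 0.515), with r = -0.168 in the 6 OF1 libraries and 0.906 in the 6 C57 libraries. Of the other smooth muscle genes listed, the myosin heavy chain gene Myh11 had 0 to 46.0 normalized counts and the calponin gene Cnn1 0 to 37.8, both named after their values were seen because they are defining markers of contractile smooth muscle.

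For the fibrillar collagen genes the libraries of a group differed more than the group means did. Col1a1 and Col1a2 encode the chains of type I collagen (ENSMUSG00000001506, chromosome 11, 94827050 to 94843868, and ENSMUSG00000029661, chromosome 6, 4504814 to 4541555), and Col3a1 encodes type III collagen (ENSMUSG00000026043, chromosome 1, 45350698 to 45395840). Col1a1 had 77.9, 30.7 and 67.9 normalized counts in OF1-En1+/- mice, against 52.5, 116 and 62.6 in OF1 WT mice. It had 21.4, 156 and 80.1 in C57-En1+/- mice, against 229, 1.61 and 33.3 in C57 WT mice. Those C57 WT values span the whole range of the gene, with C572S at the bottom and C5710 at the top.

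Col1a2 had 265, 368 and 279.6 normalized counts in OF1-En1+/- mice, against 117, 615 and 169 in OF1 WT mice. It had 343, 707 and 294 in C57-En1+/- mice, against 595, 65.8 and 322 in C57 WT mice. The OF1-En1+/- libraries were close to each other and lay inside the OF1 WT range. Col3a1 had 669, 378 and 214 in OF1-En1+/- mice, against 504, 497 and 101 in OF1 WT mice. It had 496, 877 and 331 in C57-En1+/- mice, against 1334, 28.9 and 588 in C57 WT mice, and mouse C5710 and mouse C572S were again the extremes.

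In OF1 the log2 fold changes were -0.39 (SE 1.17) for Col1a1, 0.01 (SE 0.73) for Col1a2 and 0.20 (SE 0.98) for Col3a1. In C57 they were -0.03 (SE 1.15), 0.45 (SE 0.73) and -0.20 (SE 0.97) for the same genes, and -0.78, -0.054 and -0.67 without mouse C572. Voom gave Col1a2 0.81 and Col3a1 1.14 in OF1. The edgeR adjusted p of the full data was 0.951 to 0.998 in OF1 and 0.896 to 0.998 in C57. Col1a2 and Col3a1 correlated over the 12 libraries (r = 0.784, permutation p = 0.0033, adjusted 0.018, and rho = 0.559, permutation p = 0.0615, adjusted 0.191), and r was 0.778 without SW31 and C572S. Within the strains r was 0.272 in OF1 and 0.975 in C57, so the relation was carried by the C57 libraries.

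Dcn and Lum encode decorin and lumican, leucine-rich proteoglycans that bind collagen fibrils, and lie next to each other on chromosome 10 (ENSMUSG00000019929, 97315275 to 97358155, and ENSMUSG00000036446, 97400990 to 97408577). Dcn had 202, 96.8 and 122 normalized counts in OF1-En1+/- mice, against 69.2, 136 and 0 in OF1 WT mice. It had 75.6, 1165 and 118 in C57-En1+/- mice, against 483, 9.63 and 103 in C57 WT mice. A single library held most of the C57-En1+/- sum, the one from mouse C572 that goes against its sex label. The log2 fold change in C57 was 1.19 (SE 1.49, edgeR adjusted p = 0.856) with that library and -1.04 without it. In OF1 it was 1.04 (SE 1.52, edgeR adjusted p = 0.880). Voom, which weights each library by how closely its counts follow the fit, gave 5.11 (SE 2.51, adjusted p = 0.321) in OF1 and 0.42 (adjusted p = 0.939) in C57. OF1 WT mouse SWG had 0 Dcn reads, and its part in the voom value was not tested.

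Lum had 113, 75.6 and 48.7 normalized counts in OF1-En1+/- mice, against 97.9, 73.6 and 0 in OF1 WT mice. It had 172.5, 227 and 53.1 in C57-En1+/- mice, against 64.5, 0 and 52.3 in C57 WT mice. The groups overlapped in both strains, and the zeros were in SWG and C572S. At 3 reads, the limit that a count of 0 allows, they could hold up to 3.29 and 1.61 normalized counts, a limit that covers counting error only. The log2 fold change was 0.48 (SE 1.48) in OF1 and 1.95 (SE 1.5) in C57, with edgeR adjusted p = 0.952 and 0.733. Voom gave Lum 4.25 in OF1 (adjusted p = 0.293) and 2.5 in C57 (adjusted p = 0.663). Lum correlated with Dcn (r = 0.864, rho = 0.448) and with Acta2 (r = 0.916, rho = 0.706), with permutation p = 0.00219 and 0.147 for Dcn and 0.00108 and 0.0135 for Acta2. Adjusted over 45 member pairs, the permutation p of r was 0.018 for both, and that of rho was 0.276 for Dcn and 0.0914 for Acta2. Without C572S and SWG the r of Acta2 and Lum was 0.521, so this relation leaned on the libraries at or near 0.

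**Figure D3:**
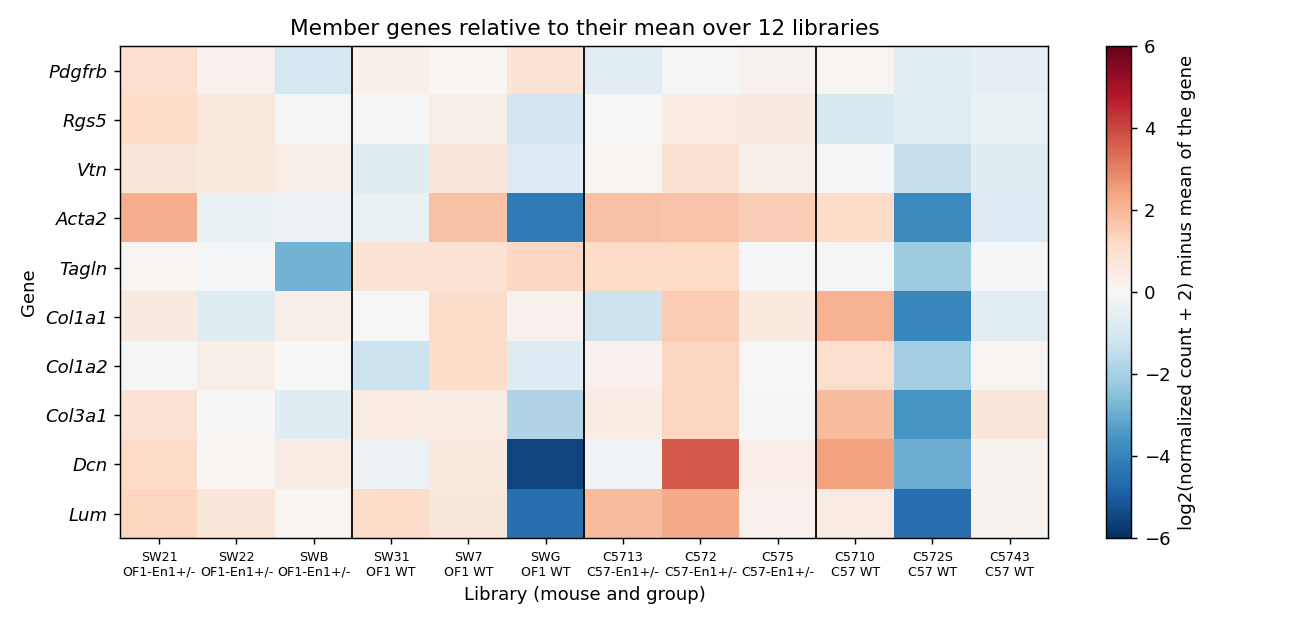
The members (rows) in the 12 libraries (columns, by mouse and group), as log2 of the normalized count plus 2 minus the mean of the gene over the libraries. The smooth muscle, collagen and proteoglycan genes are low in C57 WT mouse C572S, Acta2, Dcn and Lum are low in OF1 WT mouse SWG, and Dcn is high in C57-En1+/- mouse C572.

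As a list, 7 of 10 had a higher and 3 a lower estimate in the OF1-En1+/- mice, the median being 0.34 on the log2 scale, against -0.01 over all genes tested. In edgeR 0 of 10 passed the adjusted threshold, as did 0% of all 18017 genes, and 1 (Rgs5) had an unadjusted p under 0.05, against 9.29% of all genes. DESeq2 called 0 of 10 (1.26% of all genes) and voom 0 of 10 (0% of all genes). 0 of 10 were higher with no overlap between the groups, against 7.76% of all genes, and 1 of 10 (Tagln) was lower with none, against 8% of all genes.

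In C57, 8 of 10 estimates were higher and 2 lower in the C57-En1+/- mice, with a median of 1.09, against 0.00 over all genes. By the adjusted p, edgeR called 0 of 10 (0% of all genes), DESeq2 0 of 10 (0.416%) and voom 0 of 10 (0%). Rgs5 and Vtn had an unadjusted edgeR p under 0.05, 2 of 10 against 8.89% of all genes. Rgs5, Vtn and Acta2 were higher with no overlap, 3 of 10 against 7.44% of all genes, and 0 of 10 were lower with no overlap, against 6.93%. Without mouse C572, 6 of 10 estimates were higher and 4 lower, with a median of 0.50. No list-wide test was made, since the members were chosen with results of these data known.

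**Figure D4:**
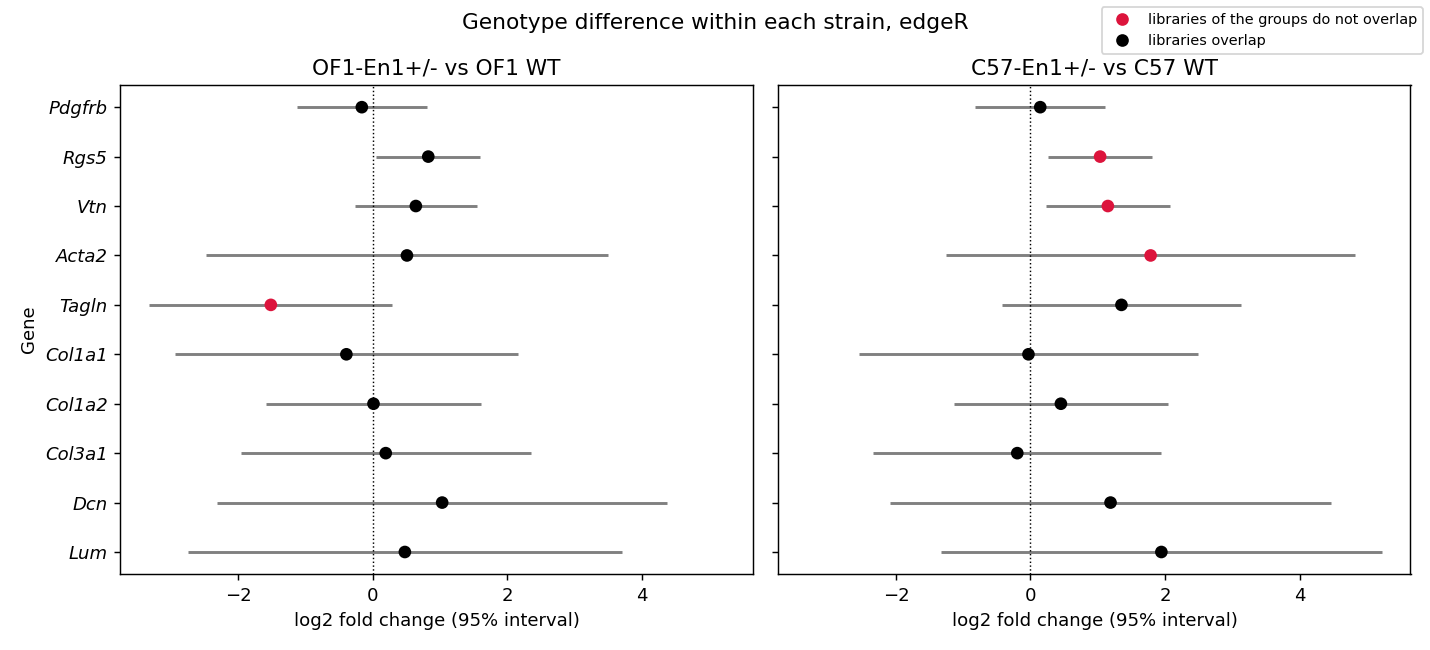
Estimated log2 fold change (horizontal axis) of each member for OF1-En1+/- over OF1 WT (left) and C57-En1+/- over C57 WT (right), from edgeR, with 95% intervals. The intervals of Rgs5 lie above 0 in both strains before adjustment and that of Vtn in C57, and those of the other members include 0.

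The strains were then compared within each genotype, with the same libraries as in the genotype comparisons. Between OF1 WT and C57 WT mice, 6 of 10 members had a higher and 4 a lower estimate in OF1 WT (median 0.51, against -0.01 over all genes). In this comparison edgeR called 0 of 10 (1.02% of all genes), DESeq2 0 of 10 (2.56%) and voom 0 of 10 (1.3%), and 0 of 10 had an unadjusted edgeR p under 0.05 (8.54%). Tagln was higher in OF1 WT with no overlap, 1 of 10 against 7.57% of all genes, with a log2 fold change of 1.52 (SE 0.82, edgeR adjusted p = 0.664). Those lower with no overlap were 0 of 10, against 7.26%. Pdgfrb had a log2 fold change of 0.74 (edgeR adjusted p = 0.711), Rgs5 0.48, Vtn 0.57 and Dcn -1.53.

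Between OF1-En1+/- and C57-En1+/- mice, 3 of 10 had a higher and 7 a lower estimate in OF1-En1+/- (median -0.55, against -0.02 over all genes). Here edgeR called 0 of 10 (0.966% of all genes), DESeq2 0 of 10 (2.49%) and voom 0 of 10 (0.755%), and 0 of 10 had an unadjusted edgeR p under 0.05 (8.13%). The groups overlapped for all 10, while 6.41% of all genes were higher and 6.74% lower with no overlap. The log2 fold change was 0.44 for Pdgfrb, 0.27 for Rgs5, 0.07 for Vtn and -1.34 for Tagln (SE 0.83, edgeR adjusted p = 0.756). For Dcn it was -1.69 with mouse C572 and 0.54 without it. The counts of higher and lower estimates and the median of this comparison were not made without that library. Over the alternative fits and left-out libraries, Col1a1 ranged from -0.996 to 0.209 and Col3a1 from -0.945 to 0.034, so their direction was not settled.

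For the difference of the genotype effects between the strains (C57 minus OF1), 9 of 10 estimates were positive, with a median of 0.40 against 0.01 over all genes. The C57 effects in it rest in part on mouse C572, without which 6 of 10 were higher and 4 lower (median 0.50). The count of positive differences was not made without that library. Over the alternative fits and left-out libraries, only Tagln stayed positive throughout (2.34 to 3.34), and Dcn ranged from -4.70 to 1.97. By adjusted p, edgeR called 0 of 10 (0% of all genes), DESeq2 0 of 10 (0.236%) and voom 0 of 10 (0%). Tagln alone had an unadjusted edgeR p under 0.05, 1 of 10 against 7.22% of all genes. Col3a1 was the member with a negative estimate, -0.39 (SE 1.38, edgeR adjusted p = 0.974).

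Further genes of the same cells and of their neighbours were read from lists, in which 0 genes passed the adjusted edgeR threshold in any comparison. Of 16 other pericyte genes tested, 13 were estimated higher and 3 lower in OF1-En1+/- mice (median log2 fold change 0.36), and likewise 13 higher and 3 lower in C57-En1+/- mice (median 0.78, and 0.49 without mouse C572). Of these, 0 of 16 in OF1 (9.29% of all genes) and 4 of 16 in C57 (8.89%) had an unadjusted edgeR p under 0.05. In C57, 5 of 16 were higher with no overlap (7.44% of all genes), namely Kcnj8 and Abcc9, which form a potassium channel of pericytes, Cspg4, Higd1b and Ndufa4l2. Des was lower with none, 1 of 16 against 6.93% of all genes. All 6 were named after their values were seen. In OF1, 2 of 16 were higher with no overlap (7.76% of all genes).

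Kcnj8 had 342, 764 and 596 normalized counts in C57-En1+/- mice, against 325.5, 279 and 262 in C57 WT mice. Cspg4, the NG2 proteoglycan of pericytes and oligodendrocyte precursors, had log2 fold changes of 0.08 in OF1 and 0.42 in C57. Atp13a5, a transporter specific to brain pericytes in mice, had 0.65 and 0.68, and Heyl, a Notch target, -0.10 and -0.32. Mcam, an adhesion molecule of mural and endothelial cells, had a C57 estimate of 3.03 (SE 0.84, edgeR adjusted p = 0.520), but this rested on the 5703 normalized counts of mouse C572, against 355 and 642.5 in the other C57-En1+/- mice and 290, 173 and 356 in C57 WT mice, and was 0.85 without that library (SE 0.37, edgeR adjusted p = 0.978).

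Of 12 other smooth muscle genes tested, 11 had a higher and 1 a lower estimate in OF1-En1+/- (median 0.67), and 10 a higher and 2 a lower estimate in C57-En1+/- (median 0.28, and 0.16 without mouse C572). Of these, 0 of 12 in OF1 (9.29% of all genes) and 1 of 12 in C57 (8.89%) had an unadjusted edgeR p under 0.05. Myl9, a myosin light chain, was that gene: it had 1033, 833 and 588 normalized counts in C57-En1+/- mice, against 473, 261 and 435 in C57 WT mice, a log2 fold change of 1.07 (SE 0.33, edgeR adjusted p = 0.520). The C57 groups did not overlap for Myl9. Tpm1, Cald1 and Tpm2, which encode thin-filament proteins, had 0.21, 0.15 and 0.75 in C57 and 0.09, 0.70 and -0.30 in OF1.

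Of 27 other fibroblast genes tested, 15 had a higher and 12 a lower estimate in OF1-En1+/- (median 0.29), and 16 a higher and 11 a lower one in C57-En1+/- (median 0.41, and 0.070 without mouse C572). The unadjusted edgeR p was under 0.05 for 2 of 27 in OF1 (9.29% of all genes) and 1 of 27 in C57 (8.89%). In C57 it was the apolipoprotein gene Apod, with 240, 2396 and 646 normalized counts in C57-En1+/- mice, against 484, 129.5 and 202 in C57 WT mice. Mouse C572 again stood highest and the groups overlapped. The log2 fold change of Apod was 2.01 with it and 0.70 without it.

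Endothelial and red blood cell genes stood on the same side as the pericyte genes in C57. So did the microglia genes, which are not of the vessel wall. All 7 were estimated higher in C57-En1+/- mice (median 0.43), and 6 higher and 1 lower without mouse C572 (median 0.32). In OF1-En1+/- mice all 7 were also estimated higher (median 0.23). In each strain 1 of 7 microglia genes had an unadjusted edgeR p under 0.05 (9.29% of all genes in OF1, 8.89% in C57). All 15 endothelial genes were estimated higher in the C57-En1+/- mice (median 0.56, and 0.44 without mouse C572). Of them, 3 of 15 had an unadjusted edgeR p under 0.05 (8.89% of all genes) and 7 of 15 did not overlap (7.44%). Their summed normalized count was 15174 to 24026 in C57-En1+/- mice, against 10910 to 13917 in C57 WT mice. In OF1, 13 were higher and 2 lower (median 0.59). Of these, 4 of 15 had an unadjusted edgeR p under 0.05 (9.29% of all genes). With no overlap between the OF1 groups, 0 of 15 were higher (7.76% of all genes) and 0 of 15 lower (8%). The endothelial sums were 15035 to 24816 in OF1-En1+/- mice, against 9814 to 17349 in OF1 WT mice. The most abundant were Itm2a, the glucose transporter gene Slc2a1, the lipid transporter gene Mfsd2a and the tight junction gene Cldn5, with log2 fold changes of 0.56, 0.72, 0.53 and 0.67 in OF1, and of 0.67, 0.72, 0.27 and 0.57 in C57.

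The 5 red blood cell genes had a lower estimate in OF1-En1+/- (median -0.34) and a higher one in C57-En1+/- (median 1.22, and 1.34 without mouse C572), where 4 of 5 did not overlap (7.44% of all genes). However, 0 of 5 had an unadjusted edgeR p under 0.05 in C57 (8.89% of all genes), and 0 of 5 in OF1 (9.29%). Their sums were 9906 to 29927 in OF1-En1+/- mice, against 6613 to 58371 in OF1 WT mice, and 22977 to 45284 in C57-En1+/- mice, against 11735 to 14273 in C57 WT mice. All 6 oligodendrocyte genes had a higher estimate in OF1-En1+/- mice (median 0.81). In C57 the median was 2.12 with mouse C572, and -0.53 without it, when all 6 had a lower estimate. Their sums were 55305 to 113395 in OF1-En1+/- mice, against 20219 to 42600 in OF1 WT mice, and 21776, 201517 (C572) and 10519 in C57-En1+/- mice, against 12423 to 33223 in C57 WT mice. What these differences in vessel, blood, microglia and myelin genes contribute to the values of Rgs5 and Vtn was not tested.

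**Figure D5:**
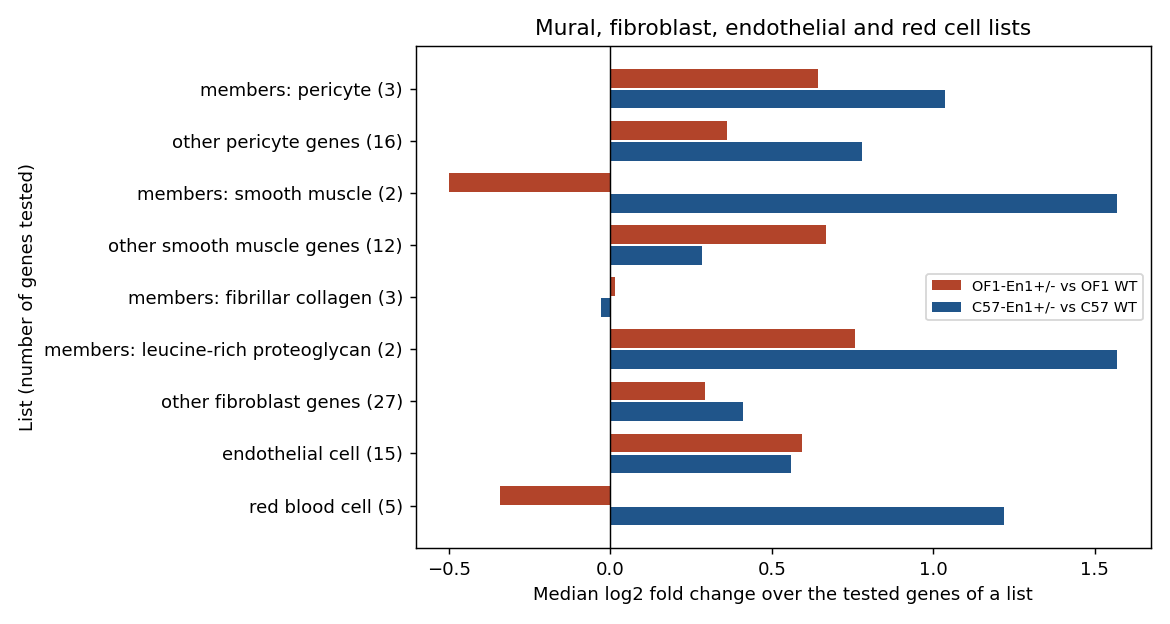
Median log2 fold change (horizontal axis) over the tested genes of each list, for OF1-En1+/- over OF1 WT and C57-En1+/- over C57 WT, with the number of genes tested in brackets. The pericyte, endothelial and other mural lists have medians above 0 in both strains, apart from the Acta2 and Tagln pair, whose OF1 median is -0.50, and the red blood cell list is below 0 in OF1 and above it in C57.

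Genes that act with the members were counted in the same way. Of the PDGF ligands and receptors other than Pdgfrb, 2 of 5 had a higher estimate in OF1-En1+/- and 1 of 5 in C57-En1+/-, and Pdgfb, the ligand of Pdgfrb, had log2 fold changes of -0.20 in OF1 and -0.13 in C57. Of 6 other regulators of the R4 family, to which Rgs5 belongs, 5 and 4 had a higher estimate, and Rgs4 had 0.88 and 0.79. Serum response factor, which drives smooth muscle genes, had -0.31 in OF1 and 0.62 in C57, and the groups overlapped in both strains. In C57-En1+/- mouse C5713 it had 149.5 normalized counts. In mice C572 and C575 it lay within the C57 WT range of 31.2 to 66.9. Its part in the values of Tagln was not tested. Its cofactor gene Mrtfb had -0.57 in OF1 and -0.05 in C57. All 3 tested genes of that list were lower in OF1-En1+/- and 2 of 3 were higher in C57-En1+/-. The 6 tested partners of vitronectin, mostly integrins, gave a median of 0.49 in OF1 and of 0.59 in C57, where 5 were higher and 1 lower. Without mouse C572 the C57 median was 0.37, with 4 higher and 2 lower.

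The TGF-beta ligands and receptors had medians of 0.73 and 0.32 over 11 genes, the collagen processing genes 0.15 and 0.22 over 20 genes, and the basement membrane genes 0.03 and 0.23 over 13 genes. Without mouse C572 the C57 medians were 0.059, 0.058 and 0.19. Of 6 other small leucine-rich proteoglycan genes, 6 had a higher estimate in OF1-En1+/- (median 1.09) and 3 in C57-En1+/- (median 0.12, and -0.94 with 1 of 6 higher without mouse C572). In OF1, 0 of 6 had an unadjusted edgeR p under 0.05 (9.29% of all genes) and 1 of 6 was higher with no overlap (7.76%). Some lay near 0: Fmod, named after its values were seen, had 0, 0 and 7.92 normalized counts in OF1-En1+/- mice, against 7.16, 0 and 0 in OF1 WT mice. The 3 tested actin genes that share sequence with Acta2 were lower in OF1-En1+/- (median -0.43), with a median of 0.21 in C57.

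The genes whose pattern over the 12 libraries was most like the mean of the pericyte members, among 13151 protein-coding genes averaging 50 or more normalized counts, were Ly6c1 (r = 0.922), Stc1 (0.912), Ecscr (0.897), Hsd11b1 (0.889), Id1 (0.876) and Slc2a1 (0.855). Of these, Ly6c1, Ecscr and Slc2a1 are known from endothelial cells. Ly6c1 had 1472, 1587 and 750.4 normalized counts in OF1-En1+/- mice, against 697, 1371 and 360.0 in OF1 WT mice, and 938, 1556 and 1085 in C57-En1+/- mice, against 509, 262 and 422 in C57 WT mice.

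For the collagens the nearest gene was Emilin1 (r = 0.935), a gene of elastic fibres, followed by Cep89 (0.914) and Prkd1 (0.892). For the smooth muscle members it was Peli2 (0.904), with Col3a1 at 0.855, and for the proteoglycans it was Acta2 (0.917), with Col3a1 at 0.865. The points share library, depth and the low values of C572S and SWG.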

How the data were processed

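RNA of laser-microdissected SNpc from 12 mice was amplified with SMART-Seq v4 and sequenced as unstranded pairs. The authors quantified transcripts with Salmon on GRCm39 (per the labels). The deposited values are estimated counts and TPM per transcript. Of 140790 transcripts, 139555 (99.1%) were matched by identifier to GENCODE and summed over 54193 genes. Counts were rounded.

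All 12 libraries were fitted with edgeR 4.0.16 (robust quasi-likelihood, TMM, 1 mean per group, R 4.3.3) over the 18017 genes averaging 10 or more normalized counts, with Benjamini-Hochberg adjustment over all of them and a threshold of 0.05. DESeq2 1.42.0, limma 3.58.1 (voom), other filters and normalizations, and leaving out libraries were alternatives. The step was tested on simulated data. Correlations used log2 counts with a prior count of 2 and 100000 permutations.

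Members and lists were chosen with earlier results of these data known. All members are named. From the lists, up to 4 tested genes with the highest mean could be named, genes sharing sequence with a member, and the 6 genes most alike. Replicate libraries of a group differed by more than counting noise. Motifs were searched in 250 bases before the main transcript start of each member except Pdgfrb.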

Additional observations from a re-analysis of the deposited data

How the results depend on the processing

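No member passed the adjusted threshold under any alternative, and the smallest adjusted p was 0.0866 (Rgs5 in OF1, voom). Of 670 fold changes over the alternatives, 632 kept their direction and 38 turned, and 14 of 32 fold changes kept theirs throughout, those of Rgs5 and Vtn within both strains among them. No paired analysis was possible because the labels give the groups no shared replicate numbers. The list medians and list genes without mouse C572, and the TPM means without C572 and C5710, were chosen after seeing the data. Counts of 1 to 5 reads in some libraries limit Acta2, Tagln and Col1a1, and counts of 0 limit Dcn and Lum. The causes of the turns were not tested.

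All genes called numbered 0 in OF1, 0 in C57, 183 between WT strains, 174 between En1+/- strains and 0 for the interaction with edgeR, and 208, 74, 456, 444 and 42 with DESeq2. Between strains the counts were 111 (WT) and 106 (En1+/-) on only the groups compared, 67 and 51 on protein-coding genes, and 106 and 109 without SW22 and C572S, where OF1 had 1. Leaving out 1 library in turn gave 0 to 3 in OF1, 0 to 1 in C57, 0 to 1 for the interaction and 113 to 177 between En1+/- strains. Without mouse C572, the C57 medians and estimates were -0.53 against 2.12 (oligodendrocyte genes) and 0.85 against 3.03 (Mcam).

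With length offsets, log2 fold changes were 0.39 (Col1a1) and -0.059 (Col1a2) in OF1 and 0.20 (Col1a1) in C57. Voom gave 0.42 for Col1a1 and 0.17 for Col3a1 in C57. Without SW22 and C572S, Col1a2 was -0.15 in OF1, and Pdgfrb -0.033 and Col1a2 -0.078 in C57. Leaving out 1 library in turn, the OF1 ranges were -0.36 to 1.08 for Col1a2, -0.64 to 0.035 for Col1a1, -0.71 to 0.22 for Pdgfrb, -0.91 to 2.49 for Acta2, -0.31 to 0.52 for Col3a1 and -0.11 to 1.10 for Lum. In C57 they were -0.78 to 2.28 for Col1a1, -0.76 to 0.88 for Col3a1, -0.054 to 1.21 for Col1a2, -1.04 to 3.00 for Dcn and -0.069 to 0.44 for Pdgfrb. Between WT strains they were -0.089 to 0.95 for Vtn and -2.61 to 0.28 for Dcn. Between En1+/- strains they were -0.11 to 0.82 for Pdgfrb, -0.027 to 0.50 for Rgs5, -0.093 to 0.33 for Vtn and -2.19 to 0.54 for Dcn. The Col3a1 interaction ranged over -0.96 to 0.68.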
